A study of Mus musculus with 168 samples.

Results

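Cadherins and protocadherins are adhesion molecules that span the cell membrane and bind to each other between neighbouring cells. All rows of the deposited table whose symbol begins with Cdh or Pcdh, followed by a digit or by the letter of the alpha, beta or gamma cluster, were taken, and those with an RPKM (reads scaled to gene length and library size) of at least 1 in at least 3 libraries were kept. This left 52 members of 59 matching rows, out of 39410 rows in the table. The rows not kept were Cdh1, Cdh3, Cdh16, Cdh19, Cdh26, Pcdh12 and Pcdhb1. Just inside the threshold were Pcdhb6, which reached 1 RPKM in 4 libraries, Cdh23 in 8 and Cdh5 in 10. Just outside it were Cdh26 with 2 libraries and Cdh1 and Pcdh12 with 1 each. The members were thus chosen by their level, and their level alone is not a finding. They comprised 3 type I cadherins, 12 type II cadherins, 3 atypical cadherins, 4 delta-1 and 5 delta-2 protocadherins, 2 other protocadherins, 21 beta protocadherins, and 1 row each for the alpha and the gamma cluster.

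Classical cadherins, of type I and type II, bind the same or a related cadherin on the next cell through their outer domains, and their inner tails hold catenins that link them to actin. In the hindbrain and spinal cord, combinations of type II cadherins are known for sorting motor neurons into nuclei and pools. The delta protocadherins are single genes with roles in axon outgrowth and synapse formation. The clustered protocadherins arise from neighbouring variable exons, each with its own promoter, and give single neurons different sets of surface proteins.

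The study used the delta7 mouse model of spinal muscular atrophy (SMA), in which a shortage of SMN protein leads to loss of motor neurons. SMA mice had the genotype Smn-/-/SMN2+/+/SMN∆7+/+, and littermate controls were Smn+/+/SMN2+/+/SMN∆7+/+, so both carried the human SMN2 and SMN∆7 transgenes and differed in mouse Smn. Groups of about 150 cell bodies were cut by laser from tissue sections at postnatal days 2, 5 and 10, and their polyadenylated RNA was sequenced. The populations were motor neurons of the ocular (oculomotor and trochlear), facial, vagus and hypoglossal nuclei and of the lumbar spinal cord, and neurons of the red nucleus, a midbrain motor centre without motor neurons. The 168 libraries, with libraries of 1 mouse and population averaged, gave 160 samples from 34 mice, 72 control samples from 15 mice and 88 SMA samples from 19. Each combination of population, genotype and age, 36 in all, had 3 to 7 mice.

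The depth estimated from the steps of the RPKM values was 0.342 to 16.3 M reads, with a median of 5.89 M. By this estimate the shallowest library was that of control mouse 252 in the red nucleus at day 10. The estimate takes low values as whole numbers of reads. A median of 75.2% of them per library lay at such steps, and 65.2% in the library of mouse 252. Smn1 was 26.7 ± 12.6 RPKM in controls (SD, n = 72; 4.32 to 63.3) and at 0 in 70 of 88 SMA samples, the highest of which had 4.24. The summed level of 3 motor neuron markers averaged 765 RPKM or more in each motor neuron population of controls and 49.8 in the red nucleus, where 2 red nucleus markers summed to 405 against 7.45 to 19.2 elsewhere. Markers of other cell types were present in all populations. The sum of 6 astrocyte markers averaged 556 RPKM in control vagus samples (362 to 797) and 1176 to 1649 in the other populations, that of 8 oligodendrocyte lineage markers 33.3 in the vagus and 131 to 265 elsewhere, and that of 6 meningeal and mural markers 125.5 in the hypoglossal nucleus (33.6 to 299) and 3.68 to 24.7 elsewhere, with Lum at 0 in every red nucleus sample. The sum of 6 microglia markers was highest in the vagus, 31.1 RPKM in controls against 8.04 to 17.6 elsewhere and 34.2 in SMA mice against 11 to 18.2. The part of these cells in the differences between populations was not tested. In tissue of this kind, fewer cells of a type and less RNA per cell cannot be told apart.

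Of the SMA ocular samples, those of mouse 206 (day 2) and mouse 250 (day 10) stood apart in several members. Pcdh19 was 47.7 and 22.5 RPKM in them and 2.19 to 7.06 in the other 14. Cdh13 was 67.0 and 88.7 against 5.12 to 25.5, and Pcdh17 was 12.2 and 14.2 against 2.84 to 6.87. The red nucleus lies close to the oculomotor nucleus in the midbrain. The summed red nucleus markers were 176.9 RPKM in the sample of mouse 250, 0.178 in that of mouse 206 and 3.22 to 33 in the other 14. The summed motor neuron markers were 431 RPKM in the sample of mouse 250 and 528 in that of mouse 206. Both lay below the other 14, which had 573 to 832. Pcdh9 was also lower in both, 46.7 (mouse 250) and 52.7 (mouse 206) against 56.3 to 205.5. What sets the 2 samples apart was not tested. The SMA values that follow include both samples unless they are said to be left out; the number of members that differed between populations in SMA mice, given further on, was 29 with and without them.

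The sequences of the promoters that lead the population results are shown first, because Pcdh17, Pcdh19 and Pcdh9 are single genes with strong differences between populations and their start regions can be read directly. Each run is the 250 bases before the gene's start in RefSeq, 5′ to 3′ on the strand of the gene, on GRCm38.p6, with CG dinucleotides in capitals. The Pcdh17 run lies at chr14:84443313-84443562 on the plus strand, the Pcdh19 run at chrX:133688994-133689243 on the minus strand and the Pcdh9 run, 1 of 2 entries, at chr14:93890680-93890929 on the minus strand.
Pcdh17: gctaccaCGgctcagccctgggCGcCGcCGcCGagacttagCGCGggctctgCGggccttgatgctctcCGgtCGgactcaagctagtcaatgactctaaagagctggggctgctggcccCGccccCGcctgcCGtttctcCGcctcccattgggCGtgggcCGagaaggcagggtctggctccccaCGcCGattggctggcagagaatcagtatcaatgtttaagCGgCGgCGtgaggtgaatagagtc
Pcdh19: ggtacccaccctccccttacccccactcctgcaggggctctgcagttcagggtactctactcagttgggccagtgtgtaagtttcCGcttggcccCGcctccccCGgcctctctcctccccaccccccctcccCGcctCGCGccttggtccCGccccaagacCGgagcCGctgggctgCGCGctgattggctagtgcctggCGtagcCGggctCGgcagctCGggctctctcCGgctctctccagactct
Pcdh9: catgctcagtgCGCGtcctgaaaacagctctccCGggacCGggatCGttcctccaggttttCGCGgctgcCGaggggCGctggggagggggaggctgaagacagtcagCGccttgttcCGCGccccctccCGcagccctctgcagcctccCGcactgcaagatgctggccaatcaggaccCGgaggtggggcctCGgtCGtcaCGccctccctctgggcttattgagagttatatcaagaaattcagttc
They hold 21, 16 and 18 CG dinucleotides. Of 32851 promoters of the same length in the table, 16.3%, 25.4% and 21.7% hold at least as many, and the median is 6. The 24 entries read, which cover 21 of the 52 members, had a median of 10.5. Promoters of the remaining members were not read.

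The runs of Cdh9 and Cdh12 are shown because these type II cadherins of chromosome 15 gave the 2 lowest unadjusted p-values of SMA against control, described further on. They lie at chr15:16728665-16728914 and chr15:21111202-21111451, both on the plus strand, before the starts that RefSeq gives. In GENCODE M21 the Cdh12 gene spans 20449265 to 21589533, so the Cdh12 run lies inside that gene model, before an internal start, and the Cdh9 gene starts at 16728756, inside the Cdh9 run. The capitals mark CAGCTG, a palindrome that reads the same on both strands.
Cdh9: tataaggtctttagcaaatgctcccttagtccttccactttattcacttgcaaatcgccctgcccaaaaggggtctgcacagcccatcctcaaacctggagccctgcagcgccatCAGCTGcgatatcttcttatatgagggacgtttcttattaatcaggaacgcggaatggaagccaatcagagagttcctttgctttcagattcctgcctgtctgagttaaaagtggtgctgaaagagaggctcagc
Cdh12: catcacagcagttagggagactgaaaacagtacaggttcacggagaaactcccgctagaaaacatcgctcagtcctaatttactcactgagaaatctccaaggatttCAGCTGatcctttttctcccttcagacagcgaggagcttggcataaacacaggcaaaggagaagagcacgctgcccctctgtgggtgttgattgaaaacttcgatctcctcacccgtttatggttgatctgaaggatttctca
CAGCTG, 1 form of the E-box, occurs once in each of them and in 13% of the 32851 promoters counted. No other of the 24 entries read for 21 members holds it. The remaining members, of 52 in all, were not searched, so the motif is not shown to be particular to these genes. A match of letters is a description of the sequence and not of binding.

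Which members differed in level between populations was asked first, in control mice and then, apart from them, in SMA mice. In controls, 26 of the 50 members that passed the filter on low values differed (limma F test over 6 populations, adjusted p under 0.05), where 44.5% of all 19621 genes tested did. In SMA mice it was 29 of 51, where the share of all genes was 46.9%, and 25 members passed in both. The members' shares therefore lay near those of all genes, and the families differed in their counts. All 4 delta-1, all 5 delta-2 and both other protocadherins passed in both genotypes, as did 9 of 12 type II and 2 of 3 type I cadherins and the alpha and gamma rows. Of 20 beta protocadherins tested, low genes with control means of at most 4.72 RPKM, 1 passed in controls and 2 in SMA mice. Cdh23 and Pcdhb6 were too low to be tested in controls.

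Over the 15 pairs of populations, 29.6% of 750 member results passed in controls (all genes 17.7%) and 33.3% of the same results in SMA mice (19.5% over all genes). In each pair of control populations, 10 to 18 of 50 members passed, where 4.66% to 27.8% of all genes did, depending on the pair. In both genotypes 25.5% of the 750 results passed, which is 86% of the control calls and 76.4% of the SMA calls, and 0 of them had opposite signs. The 2 genotypes are different mice, so the second fit measures the same differences in other animals. The sample numbers in the labels, whose meaning is not given, were higher in lumbar samples than in all others at day 5, in both genotypes. Their part in the lumbar differences was not tested. The population with the highest mean was the same in both genotypes for 21 of the 26 members called in controls. These measures of overlap were not computed over all genes, so they are not shown to be particular to the members. Across all 52 members, the control means of 2 populations correlated with r between 0.693 (ocular and vagus) and 0.939 (facial and red nucleus), a description over members that share libraries.

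**Figure D1:**
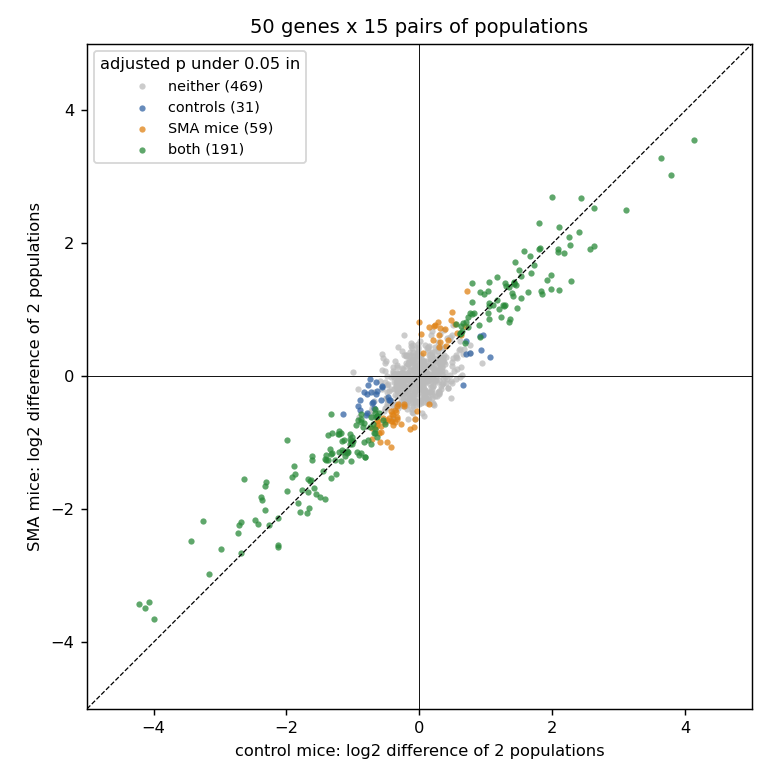
Log2 difference in log2(RPKM + 1) between 2 populations in control mice (x axis) against the same difference in SMA mice (y axis), 1 point for each of 50 members and 15 pairs; colours mark results past the threshold in neither genotype (469), controls alone (31), SMA alone (59) or both (all remaining points). The points called in both have the same sign on both axes.

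Ocular motor neurons, which are relatively resistant in this disease, had low levels of a number of members. In controls 11 of 50 members were lower than in facial neurons (8.4% of all genes were) and 1 was higher (5.02%). Against the vagus 12 were lower (14.8%) and 6 higher (11.2%), and against hypoglossal neurons 12 lower (8.81%) and 2 higher (5.41%). Against lumbar neurons 11 were lower (8.5%) and 3 higher (6.68%), and against the red nucleus 12 lower (7.98%) and 4 higher (8.73%). Some ocular libraries came from the oculomotor or the trochlear nucleus alone. Without them, the counts of lower members were 7, 12, 10, 9 and 7.

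Pcdh17, a delta-2 protocadherin of axons and synapses, had the largest F value of all members in controls. Its level was 3.59 ± 1.23 RPKM in ocular neurons (SD, n = 12; lowest 1.74, median 3.49, highest 6.70) and 16.4 ± 3.85 in facial neurons (n = 13; 12.3, 15.1 and 23.8). It was 23.7 ± 6.57 in vagus (n = 11; 17.5, 22.7, 40.2) and 22.7 ± 4.58 in lumbar neurons (n = 13; 15.9, 22.4, 32.4). In the red nucleus it was 24.3 ± 7.85 (n = 11; 14.6, 23.4, 41.8) and in hypoglossal neurons 40.7 ± 11.7 (n = 12; 19.6, 39.1, 59.1). Every ocular control sample was thus below every other control sample, and the highest mean was 11.3 times the lowest. The ocular level was below the facial one by a log2 difference of -1.92 ± 0.13 (SE) and below the hypoglossal one by -3.17 ± 0.14 (limma, adjusted p = 3.8e-28). Hypoglossal neurons stood above the red nucleus by 0.70 ± 0.14 (adjusted p = 6.8e-05), while their samples overlapped. In SMA mice the ocular mean was 5.94 ± 3.14 (n = 16), or 4.91 ± 1.42 without mice 206 and 250, and the hypoglossal mean 51.6 ± 17.5 (n = 15).

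Pcdh19, a delta-2 protocadherin on the X chromosome, whose human counterpart is a gene of epilepsy, was 3.06 ± 1.28 RPKM in control ocular neurons (1.98, 2.55, 6.38). Lumbar neurons had 18.1 ± 11.3 (3.93, 15.1, 37.7), facial 20.9 ± 10.9 (9.19, 17.8, 39.2) and hypoglossal neurons 28.4 ± 14.6 (9.13, 29.2, 52.6). The vagus had 64.5 ± 16.5 (32.9, 61.6, 91.6) and the red nucleus 75.7 ± 38.9 (18.6, 90.8, 147). The red nucleus mean was 24.7 times the ocular one, and lumbar neurons, the next above ocular, differed from them by 2.00 ± 0.25 (adjusted p = 7.0e-09) although the ranges overlapped. The SMA means of vagus and red nucleus were 77.7 ± 13.6 and 76.5 ± 27.4, and the ocular mean was 8.07 ± 11.6, or 4.21 ± 1.19 without the 2 samples that stood apart.

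The other delta-2 protocadherins had other orders. Pcdh10, which is linked to the growth of axon tracts, was highest in control hypoglossal neurons with 19.5 ± 6.90 RPKM (7.05, 20.9, 32.0), above every other population in the pairwise tests of controls. It was 5.41 ± 2.51 in ocular and 5.70 ± 3.56 in red nucleus neurons of controls. In SMA mice the hypoglossal mean of Pcdh10 was again the highest, 18.1, but not every pairwise test against it passed. In controls Pcdh18 was 9.56 ± 3.16 in vagus and 8.11 ± 3.90 in hypoglossal neurons but 1.04 ± 0.910 in lumbar and 1.33 ± 1.37 in ocular neurons. Pcdh8, an activity-regulated protocadherin, was 14.0 ± 6.21 in the red nucleus and 4.79 ± 3.07 in lumbar neurons. The adjusted p for population in controls was 4.2e-15, 4.9e-13 and 6.9e-08 for these 3 genes.

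**Figure D2:**
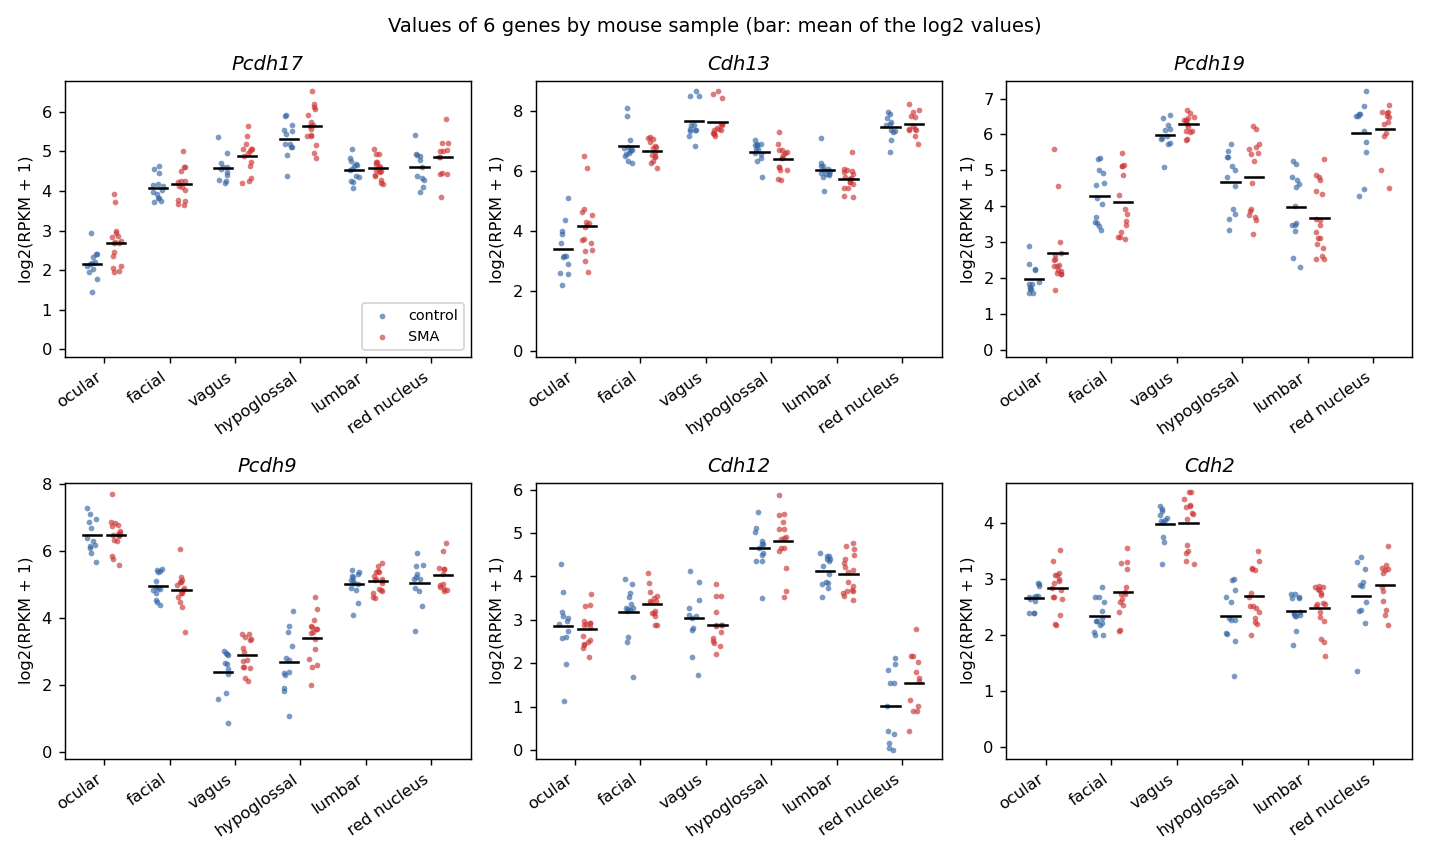
RPKM of 6 members as log2(RPKM + 1) (y axis) in each mouse sample, by population (x axis), control mice in blue and SMA mice in red, with a bar at the mean of the log2 values. Pcdh17, Cdh13 and Pcdh19 are lowest and Pcdh9 highest in ocular neurons, Cdh12 is lowest in the red nucleus and Cdh2 highest in the vagus nucleus, in both genotypes.

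Among the delta-1 protocadherins, which carry an extra binding motif for protein phosphatase in their tails, Pcdh9 ran the other way. It was 92.2 ± 32.9 RPKM in control ocular neurons (49.7, 80.3, 154), 35 ± 13.6 in the red nucleus (11.2, 35, 60.5), 32.1 ± 7.60 in lumbar neurons (15.8, 33, 42.1) and 31.0 ± 8.25 in facial neurons (19.8, 28.8, 42.6). Hypoglossal neurons had 6.63 ± 4.86 (1.13, 4.94, 17.6) and the vagus 4.65 ± 2.14 (0.806, 5.19, 7.14). The ocular mean was 19.8 times that of the vagus, and every ocular sample was above every facial and lumbar sample. The ocular level exceeded that of the red nucleus by 1.4 ± 0.25 (adjusted p = 1.5e-05), and facial exceeded hypoglossal neurons by 2.28 (adjusted p = 5.0e-11). In SMA mice, ocular neurons had 93.7 ± 36.1 and the vagus 6.89 ± 2.57.

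Pcdh11x was lowest in the vagus with 3.35 ± 1.36 RPKM (1.08, 3.15, 5.85), below each of the other 5 populations, whose means ran from 8.37 in lumbar to 18.2 in red nucleus neurons. The SMA vagus had 3.55 ± 1.60. Pcdh7 ranged from 3.46 in the vagus to 8.61 in facial neurons and Pcdh1 from 1.48 in ocular to 3.71 in vagus neurons. Of the other protocadherins, Pcdh20 was 9.56 ± 2.98 in the red nucleus and 7.07 ± 2.74 in ocular neurons, and 0.366 ± 0.416 in the vagus (0 to 1.08) and 0.790 ± 0.972 in hypoglossal neurons. Pcdh15, known for the tip links of hair cells in the inner ear, was 20.0 ± 8.48 in facial and 3.97 ± 1.86 in red nucleus neurons.

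Cdh13 (T-cadherin) is an atypical cadherin that has no inner tail and is held to the membrane by a lipid anchor. In controls it was 11.3 ± 8.26 RPKM in ocular neurons (3.57, 7.95, 32.8), 66.7 ± 22.1 in lumbar (39.5, 62.3, 134) and 100.5 ± 20.9 in hypoglossal neurons (53.7, 104, 129). Facial neurons had 121.7 ± 59.2 (75.2, 101.5, 273), the red nucleus 177.9 ± 43.5 (98.4, 180, 244) and the vagus 216 ± 101.3 (113.1, 165.4, 403). The highest ocular sample lay under the lowest sample of each other population. Vagus and red nucleus did not differ beyond their spread (0.14 ± 0.22, adjusted p = 0.72), while lumbar exceeded ocular neurons by 2.64 ± 0.20 (adjusted p = 1.3e-16). SMA ocular neurons had 14.8 ± 6.36 without mice 206 and 250 and 22.7 ± 22.7 with them, against 208.1 ± 89.5 in the SMA vagus. Cdh17 and Cdh23, the other atypical cadherins, had control means under 0.7 RPKM in every population. Both passed in SMA mice (adjusted p = 0.0029 and 0.0013).

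The type II cadherins, the class known for motor pool identity, were led by Cdh12. Control hypoglossal neurons had 25.4 ± 8.29 RPKM (10.3, 25, 43.4) and lumbar neurons 17.0 ± 4.01 (10.5, 17.9, 22.1). Facial, vagus and ocular neurons had 8.68 ± 3.35, 8.07 ± 4.14 and 7.19 ± 4.43, and the red nucleus 1.32 ± 1.26 (0, 1.01, 3.35). Hypoglossal and lumbar neurons did not pass the test against each other in controls (0.53 ± 0.23, adjusted p = 0.13) and did in SMA mice (0.78 ± 0.16, adjusted p = 0.00016), a contrast between genotypes that was not tested itself. The red nucleus lay below ocular neurons by a log2 difference of 1.84 ± 0.24 (adjusted p = 8.2e-09).

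Cdh8 was 25.4 ± 10.4 RPKM in facial (12.5, 21.9, 40.8) and 18.4 ± 5.01 in red nucleus neurons (10.8, 18.2, 26.4), which did not differ beyond their spread (0.31, adjusted p = 0.30). It was 12.2 ± 5.97 in ocular, 9.54 ± 5.24 in hypoglossal, 6.18 ± 2.32 in vagus and 4.05 ± 3.30 in lumbar neurons (1.06, 3.25, 14.1). Facial exceeded lumbar neurons by 2.44 ± 0.19. In SMA mice the facial mean was 27.9 ± 11.6 and the lumbar mean 3.85 ± 3.46.

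Other type II cadherins had patterns of their own. Lumbar neurons had the highest means of Cdh22 (24.3 ± 4.6 RPKM; 18.2, 24.6, 33.6), Cdh9 (8.20 ± 4.06) and Cdh6 (5.05 ± 2.91), where ocular neurons had 13.1, 0.915 and 1.06. The part of the separate lumbar sample numbers in these high means was not tested. Cdh7 was 11.2 ± 5.48 in hypoglossal and 8.09 ± 3.20 in lumbar neurons and 0.959 ± 0.900 in the red nucleus, below all 5 motor neuron populations. Cdh20 was 0.726 ± 0.661 in the vagus (0.0896, 0.634, 2.25), below the other 5, whose means ran from 3.40 to 5.49. Cdh11 was 17.1 ± 8.63 in the red nucleus and 16.6 ± 6.44 in the vagus, and 7.01 to 9.93 elsewhere. Cdh10 was lowest in the vagus with 12.1 ± 8.79, and the other means were 19.0 to 27.0. Cdh18, with means of 1.03 to 3.26, Cdh24 and Cdh5, the cadherin of endothelial cells with means up to 0.585, did not pass in either genotype.

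Cdh2 (N-cadherin), the main type I cadherin of neurons and also expressed by astrocytes, was 15.2 ± 3.04 RPKM in the control vagus (8.68, 15.6, 19.0). The other means were 4.21 ± 1.04 in facial, 4.37 ± 1.74 in hypoglossal, 4.51 ± 0.966 in lumbar, 5.39 ± 0.840 in ocular and 5.95 ± 2.39 in red nucleus neurons. The vagus exceeded the red nucleus, the next highest, by 1.29 ± 0.16 (adjusted p = 3.2e-09), and the 10 pairs without the vagus did not pass. The SMA vagus had 15.8 ± 5.00. In the same control samples the summed astrocyte markers were 556 RPKM in the vagus against 1176 or more elsewhere, and the microglia markers 31.1 against 8.04 to 17.6; their part was not tested. Cdh4 (R-cadherin) was also highest in the vagus, 6.63 ± 2.41, and lowest in ocular neurons, 1.15 ± 0.792. Cdh15, the cadherin of muscle and cerebellar granule cells, had means of 0.530 to 1.45 and did not pass.

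**Figure D3:**
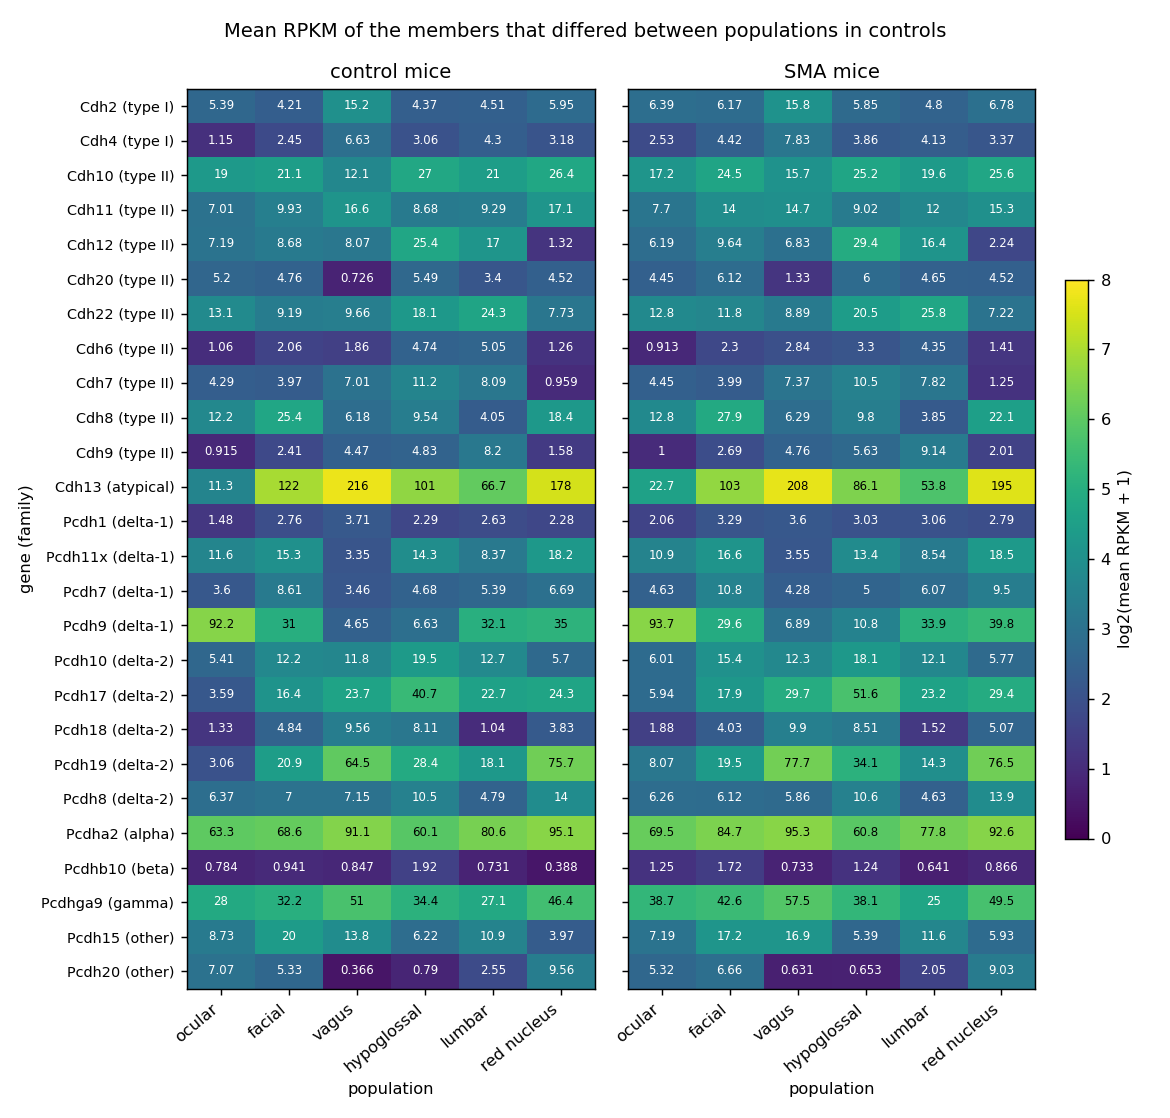
Mean RPKM on a log colour scale of the 26 members that differed between populations in controls (rows), by population (columns), for control mice on the left and SMA mice on the right. Pcdha2 and Cdh13 are among the highest rows, and the columns of the 2 genotypes show the same low ocular values of Pcdh17, Pcdh19 and Cdh13.

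Among the clustered protocadherins, few beta genes passed. Their control means were at most 4.72 RPKM in any population, where log2(RPKM + 1) understates changes. The lower count is therefore not shown to be a trait of this family. In GENCODE M21, Pcdha2 shares exons with 12 other alpha genes and Pcdhga9 with 25 other genes. Which reads the rows of these names count is not given. Each may therefore hold reads of other genes of its cluster, and neither can be read as 1 isoform. Pcdha2 was between 60.1 ± 17.2 RPKM (hypoglossal) and 95.1 ± 34.9 (red nucleus) in controls and Pcdhga9 between 27.1 ± 8.83 (lumbar) and 51 ± 18.7 (vagus), with adjusted p of 3.6e-05 and 0.00014. The 21 beta genes, each 1 exon with its own promoter, summed to 24.3 RPKM in the vagus and 34.0 in hypoglossal neurons, and a median of 8 to 11 of them reached 1 RPKM in a sample. The highest were Pcdhb21 (population means 2.53 to 4.67), Pcdhb7 (2.27 to 4.72) and Pcdhb3 (2.16 to 4.21), with adjusted p of 0.17, 0.12 and 0.13 in controls. Pcdhb10, the beta gene that passed in controls, had 1.92 RPKM in hypoglossal neurons and 0.388 to 0.941 elsewhere (adjusted p = 0.017), but not in SMA mice (0.11). Those that passed in SMA mice were Pcdhb7 and Pcdhb3 (3.4e-05 and 0.0029). Pcdhb21 and Pcdhb22 overlap each other, and Cdh8, Cdh9, Pcdh7, Pcdh8, Pcdh10, Pcdh19 and Pcdhb12 overlap a gene on the opposite strand. Whether the counting used strand is not given in the sources used here.

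The change from day 2 to day 10 was examined next in each population. The sample numbers in the labels run in largely separate ranges at each age, and what they mark is not given, so age and any such order cannot be told apart. Lumbar samples also had separate numbers at day 5, as given above. In controls 25 of 285 member results passed, 22 falls (3.67% of all results over genes) and 3 rises (3.38%), in 14 genes. In SMA mice there were 20 falls (3.63%) and 1 rise (3.77%), also in 14 genes. Of these, 12 results passed in both genotypes, 48% of the control and 57.1% of the SMA calls, all falling or rising alike, and 23 of the 25 control calls had the same sign in SMA mice. This overlap was not computed over all genes. The control calls numbered 4 in ocular (8.02% of all genes), 3 in facial (5.36%), 0 in vagus (1.02%), 2 in hypoglossal (5.11%), 6 in lumbar (12%) and 10 in red nucleus neurons (11.1%). In SMA mice they were 3 (6.66%), 4 (6.73%), 2 (3.31%), 1 (4.31%), 11 (18.4%) and 0 (5.06%). At an unadjusted p under 0.05 there were 4 members in the control vagus and 7 in the SMA red nucleus. The shares of all genes at that unadjusted threshold were not computed. In lumbar controls the median log2 change was -0.35 over members and -0.10 over all genes. Markers of other cell types moved with age too: the summed oligodendrocyte markers went from 33.1 RPKM at day 2 to 720 at day 10 in lumbar controls, from 16.2 to 368 in ocular and from 9.33 to 380 in red nucleus controls, against 43.6 and 33.4 in the vagus. The summed astrocyte markers went from 1658 RPKM (1441 to 1769) to 1105 (1039 to 1231) in lumbar controls, in the direction of the member falls there, and from 796 (618 to 981) to 1616 (1464 to 1849) in red nucleus controls. The meningeal and mural sum went from 49.5 to 240.3 in hypoglossal controls. The part of these cells in the changes below was not tested.

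The alpha row Pcdha2 passed as a fall in ocular and lumbar neurons of both genotypes. Its estimates were negative in all 6 populations of each genotype, where 2 passed in controls and 4 in SMA mice. In lumbar controls it was 101.97, 108, 114.5 and 117.2 RPKM at day 2, between 43.8 and 106.6 at day 5, and 35.5, 36.9, 42.8 and 53.9 at day 10, without overlap between the first and last age (-1.38 ± 0.29, adjusted p = 0.0011). In ocular controls it went from 67.8, 108.9, 114.6 and 121.1 to 31.4, 31.8, 35.7 and 44.3 (-1.48 ± 0.23, adjusted p = 0.00011). SMA mice showed -1.46 in lumbar and -1.63 in ocular neurons, and falls of -1.40 in facial and -0.90 in vagus neurons that did not pass in controls.

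Cdh8 fell in ocular and facial neurons of both genotypes. The facial control values were 21.3, 29.1, 32.6, 37.3 and 38.9 RPKM at day 2 and 12.5, 12.9, 13.7 and 20.0 at day 10 (-1.05 ± 0.25, adjusted p = 0.012), and the ocular ones went from 13, 19.3, 21.3 and 21.7 to 4.13, 5.85, 7.90 and 9.56 (-1.36 ± 0.31, adjusted p = 0.0055). In SMA mice the changes were -1.59 ± 0.24 and -1.16. Hypoglossal controls went from 8.43, 9.46, 10.7 and 15.3 to 1.87, 2.75, 4.57 and 5.72 (-1.39 ± 0.33, adjusted p = 0.010), where SMA mice had -0.81 with an adjusted p of 0.11. In these 3 control populations the 2 ages did not overlap. When the fit held only the 2 groups compared, the ocular and hypoglossal control calls were lost, and the ocular SMA call was lost without libraries of 1 nucleus.

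In lumbar motor neurons, a population strongly affected in the disease, 6 of 45 members passed in controls and 11 of 45 in SMA mice, near the shares over all genes of 12% and 18.4%. The type II cadherin Cdh11 went from 8.12, 10.2, 11.2 and 18.2 RPKM to 2.72, 3.41, 3.62 and 3.91 in controls (-1.50 ± 0.29, adjusted p = 0.00046), and by -1.64 in SMA mice. Cdh9 went from 8.78, 8.96, 10.6 and 10.9 to 1.96, 2.52, 2.63 and 3.78 (-1.55 ± 0.31, adjusted p = 0.00066; SMA -1.56). At day 5 the control values were 6.94 to 16 RPKM for Cdh11 and 9.18 to 13.5 for Cdh9, in or near the range of day 2. The delta-2 genes Pcdh10 and Pcdh8 fell as well, Pcdh10 from 14.5, 14.8, 17.6 and 17.8 to 5.00, 5.58, 5.78 and 7.22 (-1.32 ± 0.22, adjusted p = 0.00012; SMA -1.14). Pcdh8 fell from 3.78, 8.20, 8.52 and 8.92 to 0.205, 0.495, 1.34 and 2.63 (-2.02 ± 0.35, adjusted p = 0.00016; SMA -1.78 ± 0.29). Pcdh11x fell from 10.2, 10.2, 12.6 and 15 to 3.02, 3.72, 4.31 and 5.13 (-1.37 ± 0.28, adjusted p = 0.0010; SMA -1.15). In controls, day 2 and day 10 did not overlap for any of these 5 genes. In facial neurons Pcdh11x fell from 14.3 to 25.6 RPKM at day 2 to 5.99 to 7.20 at day 10 (-1.34 ± 0.24, adjusted p = 0.00080; SMA -0.90). The SMA call was lost without mouse 199 or mouse 258, and when the fit held only the groups compared. Cdh11 also fell in facial neurons (-1.05 in controls, -1.28 in SMA mice), Pcdh11x in ocular controls (-1.09) and Pcdh10 in hypoglossal controls (-0.84), and these control calls were lost when any of 7, 4 and 6 mice, respectively, was left out.

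Lumbar calls of SMA mice alone were Cdh10 (-1.04, adjusted p = 0.00015, with -0.59 and 0.087 in controls), Cdh8 (-1.41), Cdh12 (-0.56), Cdh2 (-0.59) and Cdh24 (-1.09); the last 3 were lost when 1 of several single mice was left out. Cdh13 fell in SMA hypoglossal neurons (-0.82, adjusted p = 0.0044) and Cdh4 in the SMA vagus (-0.96, adjusted p = 0.019). The Cdh4 call was lost when mouse 250 or mouse 258 was left out. Whether these changes differ between genotypes is covered by the test of genotype with age below.

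Cdh22 was the member that rose in both genotypes. Ocular controls had 3.51, 6.52, 9.15 and 12.3 RPKM at day 2 and 17.6, 22.3, 23.2 and 23.9 at day 10, without overlap (1.46 ± 0.31, adjusted p = 0.0030). SMA mice went from 4.79 to 13.5 at day 2 to 11, 17.5, 18.9, 22.8 and 23.6 (0.97 ± 0.26, adjusted p = 0.023), a call lost when any of 4 mice was left out. The control call was lost with only the groups compared, and the SMA call without libraries of 1 nucleus.

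The red nucleus had the most control calls and none in SMA mice, and the count rests partly on the shallow library of mouse 252: the count was 4 without that mouse, and 6 without mouse 14 or mouse 244. Cdh4 fell from 3.15, 4.40, 7.26 and 7.48 RPKM to 0, 0.458, 0.757 and 1.84 (-1.94 ± 0.39, adjusted p = 0.0020), and Pcdhga9 fell by 1.09 on the log2 scale; neither call was lost with any single mouse left out, while that of Cdh4 was lost when the fit held only the 2 groups compared. Pcdh8, Pcdh10, Pcdh18, Cdh11, Pcdhb14 and Pcdhb17 also fell, by 1.02 to 1.53 on the log2 scale, and each lost its call without at least 1 mouse. Cdh12 rose from 0, 0.0364, 0.297 and 0.356 to 1.91, 1.91, 2.59 and 2.93 (1.51 ± 0.45, adjusted p = 0.030). Cdh9 rose from 0, 0, 0.304 and 2.34 to 1.86, 1.86, 3.27 and 6.36 (1.47 ± 0.43, adjusted p = 0.029). In SMA mice these 2 genes had -0.72 and -0.34, far from the threshold (adjusted p = 0.43 and 0.75). The control call was lost when any of 4 mice (Cdh12) or any of 5 mice (Cdh9) was left out.

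**Figure D4:**
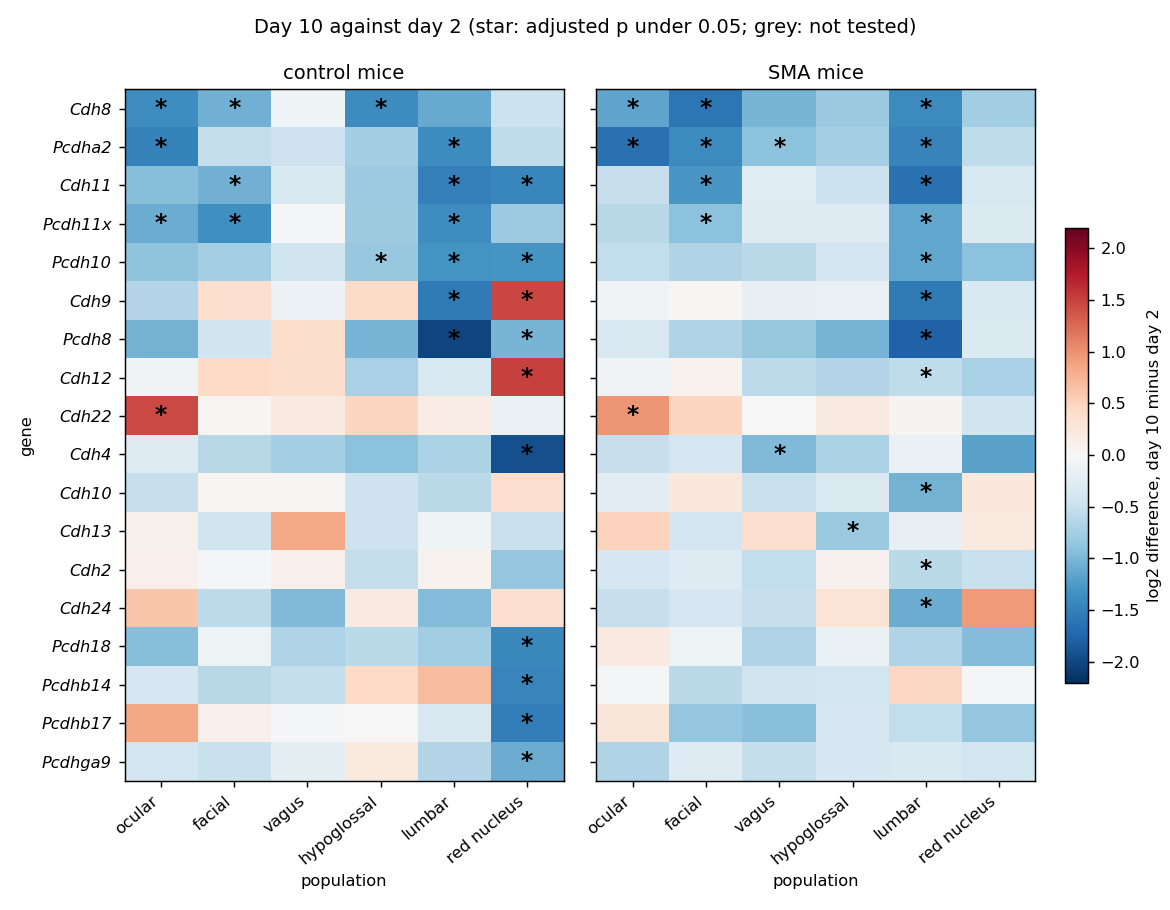
Log2 change from day 2 to day 10 (colour) of 18 members (rows) in each population (columns) of control mice and SMA mice, with a star where the adjusted p was under 0.05. Most stars lie on falls, and the lumbar column of SMA mice holds the most, 11.

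Whether the change with age itself differed between populations was tested in controls: 1 of 50 members passed (3.57% of all genes), Pcdh8, with an adjusted p of 0.049. The next were Cdh9 (0.058) and Cdh12 (0.094). The Pcdh8 call was lost when any of 11 of the 15 mice was left out. For the other members, a call made in some populations and missed in others is therefore not shown to differ between them.

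Genotype was compared last, in each population at each age, the comparison the study was built on. None of 855 member results passed (limma, 18 contrasts of 45 to 49 members), where 0.129% of all results over genes did. At an unadjusted p under 0.05 there were 44, or 5.15%. The share of all genes at this unadjusted threshold was not computed, so the 44 are not a result about the members. The smallest adjusted p was 0.21, and no member passed under any alternative processing or with any mouse left out. The absolute log2 differences had a median of 0.27 and their standard errors a median of 0.38, so differences of this size were not detectable with these groups. Of the estimates, 97.5% were under 1. The median over members of a contrast lay between -0.09 and 0.32. The test of a genotype difference that changes with age called 0 members (0.0344% of all genes), with a smallest adjusted p of 0.71 for Cdh12 in the red nucleus.

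The 5 contrasts with the lowest unadjusted p, none past the threshold, began with Cdh12 in the red nucleus at day 2. Controls had 0, 0.0364, 0.297 and 0.356 RPKM and SMA mice 0.868, 3.50, 3.51 and 5.89, without overlap (1.79 ± 0.45, adjusted p = 0.21). Cdh9 in the same samples was 0, 0, 0.304 and 2.34 against 1.92, 2.00, 2.96 and 3.99 (1.33 ± 0.43, adjusted p = 0.33), with overlap through 1 control. The summed oligodendrocyte markers of these groups were 9.33 in controls and 34.9 in SMA mice, and their part was not tested. The day 2 control values of both genes are the same ones that enter the control rises above, so the 2 observations share samples. The sample numbers of these SMA samples lay above those of most of these controls, and their part was not tested.

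Cdh20 in the vagus at day 10 was 0.145, 0.153, 0.392 and 0.705 in controls and 0.991, 1.95, 2.01, 2.35 and 2.65 in SMA mice (1.14 ± 0.38, adjusted p = 0.87). Cdh10 in lumbar neurons at day 10 was 12.2, 13.4, 20.2 and 21.7 against 9.21, 9.27, 9.87, 12 and 12.2 (-0.60 ± 0.21, adjusted p = 0.23). Pcdh20 in facial neurons at day 2 was 0.0792, 0.815, 2.15, 3.21 and 6.5 in controls and 3.85 to 8.06 in 7 SMA mice (1.06 ± 0.37, adjusted p = 0.39). The vagus groups did not overlap, the lumbar ones lay next to each other without overlap (12.23 and 12.18), and the facial ones overlapped.

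**Figure D5:**
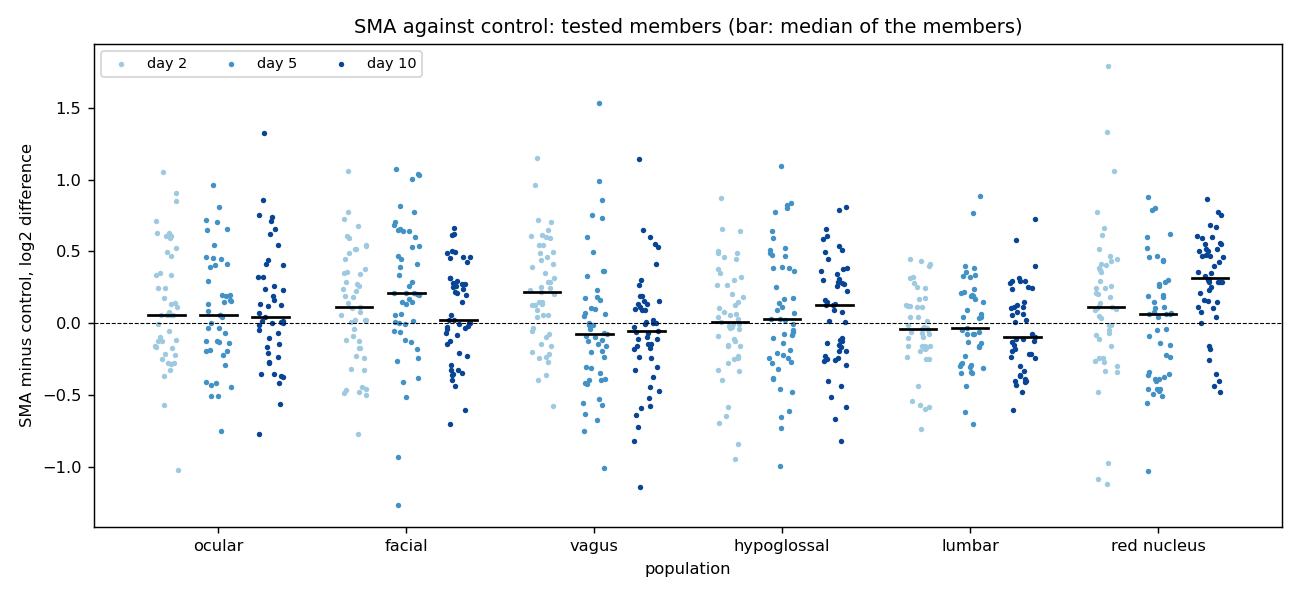
Log2 difference between SMA and control mice (y axis) of each tested member, 1 point per member, in the 18 contrasts of population and age (x axis), with a bar at the median. The points run from -1.26 to 1.79 and the medians from -0.09 to 0.32; no point passed the threshold.

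The partners of these proteins were read from lists of their own. Of 9 catenins, the tail partners of classical cadherins, 6 differed between populations in controls (all genes 44.5%) and 7 in SMA mice (46.9%). With age, 6 of 54 catenin results passed in controls (7.06% of all results over genes) and 7 of 54 in SMA mice (7.39%), all falls. Ctnnd2 (delta-catenin of synapses) fell in ocular (-0.62), lumbar (-0.62) and red nucleus controls (-0.93). In SMA mice Ctnnd2 fell in ocular (-0.64), hypoglossal (-0.52) and lumbar neurons (-0.72). Ctnna2, the neuronal alpha-catenin, fell in the control (-0.98) and the SMA red nucleus (-0.95). In SMA mice Ctnna2 also fell in ocular (-1.10), vagus (-0.85) and lumbar neurons (-0.65). Of the 9 further cadherin superfamily genes tested, 8 differed between populations in each genotype, beside the same shares over all genes of 44.5% and 46.9%. With age, 10 of 52 of their results passed in controls (7.06%), 3 rises and 7 falls, and 7 of 52 in SMA mice (7.39%), 1 rise and 6 falls. Dchs1, a giant cadherin that binds Fat4, fell in ocular (-1.23), facial (-1.30), hypoglossal (-1.07) and lumbar controls (-1.74 ± 0.27, adjusted p = 2.9e-05), and by -1.07 and -1.21 in hypoglossal and lumbar SMA neurons. Clstn1, a calsyntenin, rose in ocular and lumbar controls (0.60 and 0.36).

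Of 9 tested regulators of the clustered promoters, among them Ctcf, which binds these promoters, 4 differed between populations in each genotype, near the 44.5% and 46.9% of all genes, and 2 of 50 results passed with age in controls and 1 of 50 in SMA mice (7.06% and 7.39% over all genes). Of 8 effectors of protocadherins, kinases and members of the WAVE complex that builds branched actin, 3 differed between populations in controls and 5 in SMA mice, and 2 and 9 of 48 results passed with age, beside the same shares over all genes. In genotype, 0 results of the catenins, the superfamily genes and the regulators passed. Among the effectors, 3 of 48 passed at day 10, all Ptk2b, the kinase Pyk2 that the clustered protocadherins are known to inhibit. Ptk2b was higher in SMA mice in ocular (2.30 ± 0.42, adjusted p = 0.0046), facial (2.97 ± 0.52, adjusted p = 0.0024) and lumbar neurons (1.95 ± 0.43, adjusted p = 0.019). Of all genes, 0.359%, 0.666% and 0.775% passed in these 3 contrasts. The alpha and gamma rows did not pass in them, and a relation between Ptk2b and the clustered protocadherins was not tested.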

How the data were processed

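RNA of laser-captured neurons was amplified with Smart-seq2, tagmented with Tn5 and sequenced, per the labels' protocols. The values are RPKM, which the authors deposited as 1 table for 168 libraries. STAR 2.4.1c, mm10 and hg19 are named in the submitters' processing notes; the annotation and the use of strand are not given in the sources used here. The members and lists were chosen with earlier results of these data known.

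Libraries of 1 mouse and population were averaged. Genes with at least 1 RPKM in as many samples as the smallest group holds were fitted with limma 3.58.1 (R 4.3.3; lmFit, eBayes with trend) on log2(RPKM + 1), so log2 differences understate changes of low genes. All tests were two-sided, with Benjamini-Hochberg adjustment over all genes of a contrast and a threshold of 0.05. The procedure was also run on simulated data with independent noise, in which no low genes were changed. That run therefore cannot show how members near 1 RPKM behave. Populations were compared in 1 fit per genotype with ages weighted equally, and age and genotype in 1 fit per population. Members named with full values were the 20 with the largest population F, the members called with age in the most populations, the 5 lowest genotype p-values, and the 3 highest of each cluster. Gene positions came from GENCODE M21, promoters from RefSeq. The mouse number in the labels marks the same animal, so samples of different populations are paired by mouse; after the groups were fitted, samples of 1 mouse correlated by 0.0339 in controls and 0.0406 in SMA mice. Alternatives were a pseudocount of 0.1, no filter, quantile normalization, each library as a sample, ocular libraries of 1 nucleus left out, single ages, only the groups compared, the mouse as a block and each mouse left out. The alternative without the ocular samples of mice 206 and 250 was chosen after seeing the data. Depth sets the precision of low values: RPKM carries no counting interval here.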

Additional observations from a re-analysis of the deposited data

Results flagged for a closer look

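Single samples lay far from the rest of their group in 7 of 99 groups of member, population, genotype and age that were examined; chance gives about 1 in 20. In lumbar SMA mice at day 2, Cdh10 was 35.9 RPKM in mouse 38 (n = 7, next 24.1) and Pcdh11x was 24.8 in mouse 211 (n = 7, next 14.4). In lumbar SMA mice at day 10, Cdh24 was 1.21 in mouse 199 (n = 5, next 0.277). In lumbar controls at day 2, Pcdh8 was lowest at 3.78 in mouse 20 (n = 4, next 8.20). In facial controls at day 10, Cdh8 was 20.0 in mouse 253 (n = 4, next 13.7). In the red nucleus of controls, Cdh9 was 2.34 at day 2 in mouse 14 (n = 4, next 0.304) and Cdh11 was lowest at 3.47 at day 10 in mouse 252 (n = 4, next 9.13), the shallowest library.

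The change from day 2 to day 10 of Pcdh8 differed between control populations by the test of that difference (limma, adjusted p = 0.049). The change was -2.02 in lumbar, -1.04 in ocular, -1.02 in red nucleus, -1.02 in hypoglossal, -0.44 in facial and 0.39 in vagus neurons. The call was lost when any of 11 of the 15 mice was left out, without a filter on low values, and with each library as a sample (adjusted p = 0.086).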

How the results depend on the processing

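None of the named age and genotype results changed sign under any alternative. The F tests have no sign, and the signs of other results were not compared. The count of members differing between populations was 17 of controls at day 2 alone, against 26, and 18 of SMA mice at day 5 alone, against 29; these settings hold fewer samples. Control falls with age were 10, against 22, and rises 1, against 3, when only the groups compared entered the fit. The SMA rise, 1 in all, became 2 with quantile normalization or only the groups compared and 0 without ocular libraries of 1 nucleus. The count of members whose change with age differed between populations was 1 and became 2 with the pseudocount of 0.1, with quantile normalization and with the mouse as a replicate block, and 0 without a filter. With each mouse left out, the counts ran from 25 to 27 (population, controls), 28 to 32 (population, SMA), 0 to 2 (age by population), 1 to 4 rises and 16 to 22 falls (age, controls), 0 to 2 and 16 to 23 (age, SMA), and 0 (genotype).

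With the mouse as a replicate block, 26 control and 30 SMA members differed between populations, against 26 and 29 without it, and 12 pair calls were gained and 0 lost. The block was fitted only where a fit holds several populations; there it changed the call of 0 of 41 named results. The age and genotype fits hold 1 sample per mouse. Of the single named results, 17 of 51 fell short of the threshold with only the groups compared. The 51 include the 5 lowest genotype p-values, which had not passed and so could not fall short. With quantile normalization 6 named results fell short, 5 without a filter, 3 without ocular libraries of 1 nucleus and 0 with the pseudocount of 0.1. Member results called over control pairs numbered 84 of 750 at day 2 alone. Low members such as Cdh5, Cdh15 and most beta genes, near 1 RPKM, and groups of 3 to 7 mice limit what could be detected.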
